A study of Mus musculus with 6 samples.

Results

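CpG methylation was measured at the loci of 9 transcription factors that specify the first lineages of the mouse embryo: Sox17, Gata6, Gata4 and Foxa2 (endoderm), T and Eomes (mesoderm and the primitive streak), Pax6 (neural tissue), and Cdx2 and Elf5 (trophoblast). Each locus was taken as a fixed interval around the gene on the mouse genome build GRCm38, and every row of the table of windows that overlapped an interval was a member. These were 102 of the 359192 windows in the table, with 7 at Sox17, 10 at Gata6, 24 at Gata4, 15 at Pax6, 7 at T, 8 at Eomes, 8 at Cdx2, 13 at Elf5 and 10 at Foxa2. The cells were E14TG2a, a mouse embryonic stem cell (mESC) line of strain 129/Ola grown on gelatin in serum with LIF, with no treatment that differed between groups. Cells were labelled with EdU, which marks DNA synthesis, fixed, stained for DNA content with propidium iodide and sorted into G1 and G2/M, giving 2 groups of 3 replicates (6 libraries in all). EM-seq converts unmodified cytosine enzymatically and reads 5-methylcytosine and 5-hydroxymethylcytosine together, so a percentage here is the sum of both marks. The values came as percentages without read coverage, so the depth of each window is unknown. The study speaks of matched replicates of the 2 phases. G1 and G2/M libraries of the same number are called matched below.

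In mESCs these genes are held ready for later use. Lineage regulators of this kind typically have CpG-dense promoters that lack DNA methylation and carry Polycomb marks, and long stretches around such genes can stay free of methylation, known as methylation valleys. Elf5 is a known exception, a trophoblast factor whose promoter is methylated in ES cells and free of methylation in trophoblast stem cells. The measurements below were of DNA methylation only, and none of them was of transcription or of histone marks.

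The stretches just before the start of 4 transcripts are shown, for windows of low (Eomes, Foxa2) and high (Elf5) methylation and for a start in no window (Cdx2). They were read from RefSeq promoters on GRCm38.p6, cut where an annotated coding transcript of the gene begins, and run from 5′ to 3′ along the gene, with each CG dinucleotide in capitals. Promoters of Pax6 and T were also found in RefSeq, and those of Sox17, Gata4 and Gata6 are named only.
Eomes: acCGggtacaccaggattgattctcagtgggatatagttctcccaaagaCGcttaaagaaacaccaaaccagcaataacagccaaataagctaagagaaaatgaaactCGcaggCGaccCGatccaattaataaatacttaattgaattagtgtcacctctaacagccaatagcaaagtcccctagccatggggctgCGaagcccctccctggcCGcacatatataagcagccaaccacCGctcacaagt
Elf5, downstream start: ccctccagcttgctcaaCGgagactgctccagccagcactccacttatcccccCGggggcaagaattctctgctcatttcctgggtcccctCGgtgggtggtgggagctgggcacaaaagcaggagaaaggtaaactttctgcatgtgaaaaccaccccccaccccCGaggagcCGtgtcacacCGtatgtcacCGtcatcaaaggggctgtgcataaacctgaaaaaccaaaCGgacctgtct
Foxa2, inner start: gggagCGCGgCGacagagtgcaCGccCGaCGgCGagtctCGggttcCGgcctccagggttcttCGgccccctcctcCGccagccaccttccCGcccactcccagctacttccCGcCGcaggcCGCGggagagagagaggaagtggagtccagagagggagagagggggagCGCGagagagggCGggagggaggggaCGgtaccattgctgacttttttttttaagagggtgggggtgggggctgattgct
Cdx2: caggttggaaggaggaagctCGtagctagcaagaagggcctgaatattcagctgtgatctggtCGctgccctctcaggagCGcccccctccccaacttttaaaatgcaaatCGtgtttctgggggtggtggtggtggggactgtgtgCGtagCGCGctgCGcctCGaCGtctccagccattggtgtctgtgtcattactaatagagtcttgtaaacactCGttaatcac
The Eomes stretch (chr9:118477939-118478188) and the Elf5 stretch before its downstream start (chr2:103423818-103424061) each held 8 CG dinucleotides. At least as many were present in 43.0% of RefSeq promoters cut to the length of the Eomes stretch and in 42.2% of those cut to the length of the Elf5 stretch. The Eomes stretch lay in a window with a methylation level of 4.75% ± 3.21 (SD, n = 6 libraries). The Elf5 stretch straddled neighbouring windows of 74.0% and 56.0%. The Foxa2 stretch before its inner start (chr2:148045949-148046198) held 20, which 17.95% of promoters reached, and 211 of its bases lay in a window of 2.21%. The stretch before the principal start of Foxa2, not shown, held 6 and lay in a window of 17.5%. The Cdx2 stretch (chr5:147307271-147307499) held 11, which 32.3% of promoters of that length reached, and no window of the table covered any of it.

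Low methylation was more frequent at the 9 loci than in the table as a whole. The mean over the 6 libraries was under 20% in 29 of the 102 windows (28.4%) and in 3.50% of all windows. It was under 10% in 18 member windows (17.6%, against 2.13% of all) and over 50% in 51 (50.0%, against 87.6%). Of the 9 loci, 8 held at least 1 window under 20% and 6 at least 1 under 10%. The exception was Elf5. A level of 0 in every library was listed at 3 member windows, 1 each at Sox17, Pax6 and Cdx2, as at 1368 windows of the table. The source does not state what a listed 0 stands for, so these are given as listed values only. Member windows ranged from 549 to 10155 bp in length (median 2934 bp) and contained a median of 52 CG dinucleotides.

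**Figure D1:**
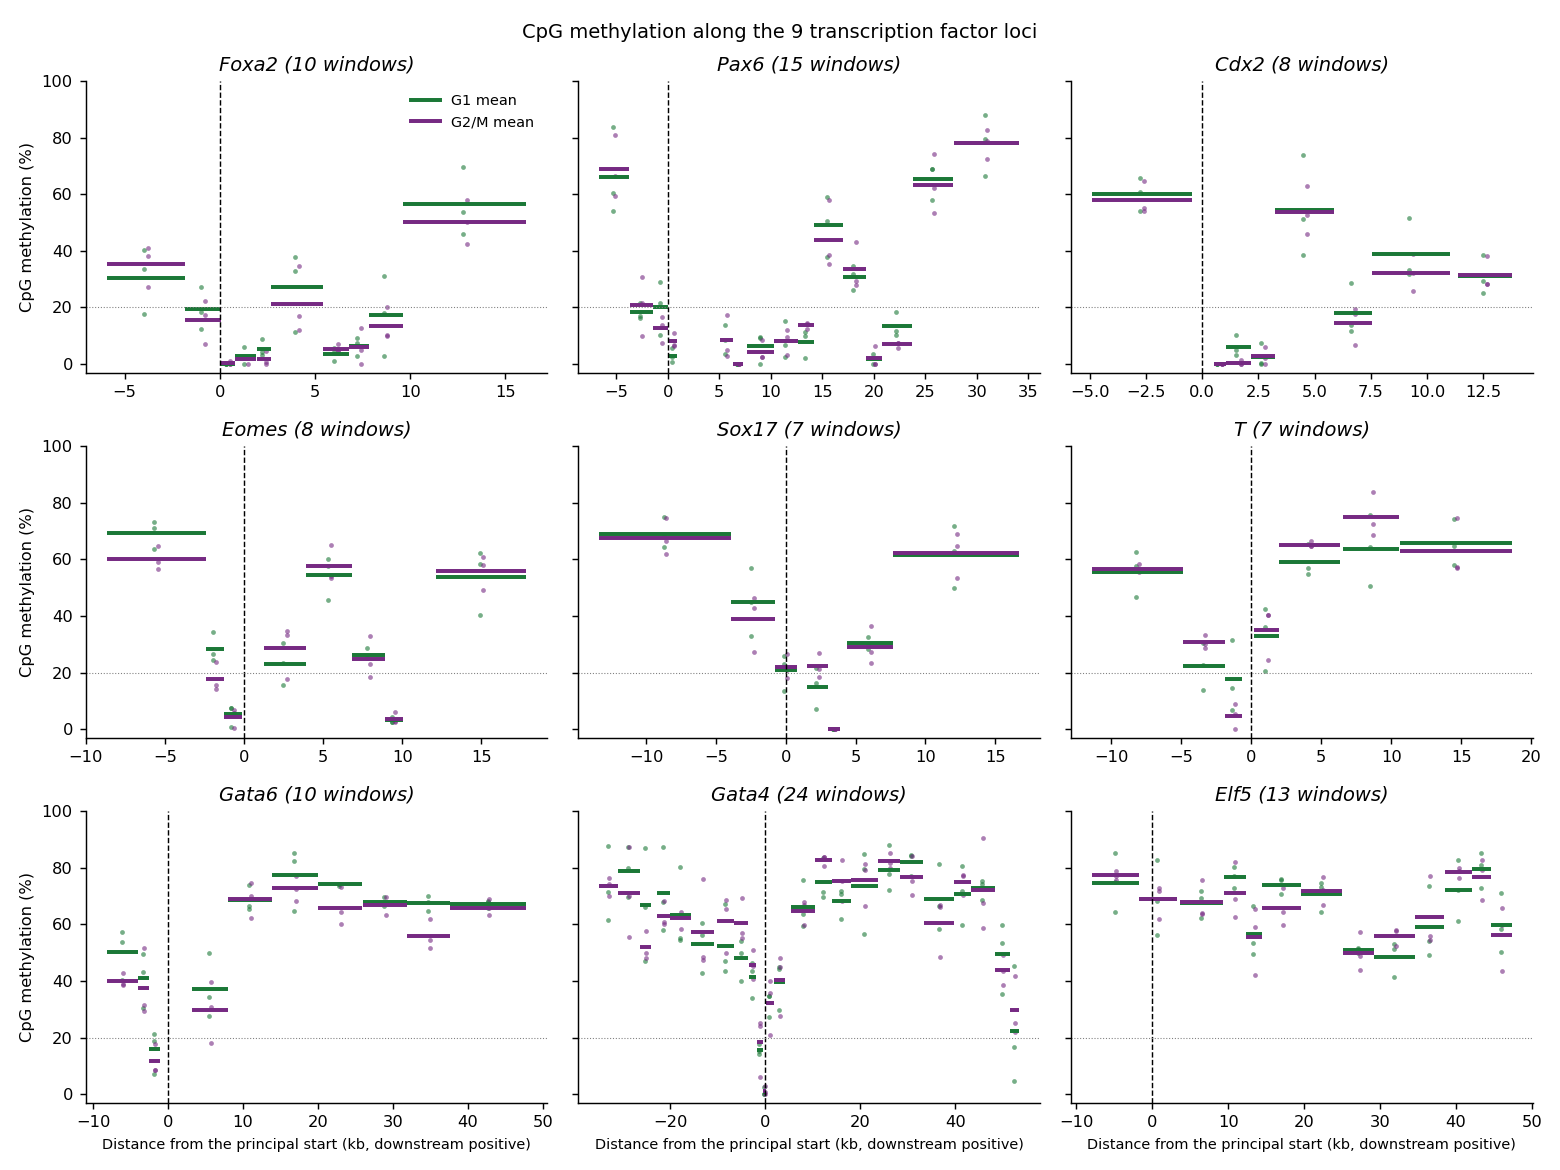
CpG methylation (%) along the 9 loci against the distance from the start of the principal transcript in kb, with horizontal bars for the mean of 3 G1 (green) and 3 G2/M (purple) libraries over the length of each window and points for single libraries. The dotted line marks 20% and the dashed line the start. Pax6 and Foxa2 had several neighbouring windows under 20%, Gata4 a narrow dip at its start, and Elf5 no window under 50%.

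Among the endoderm genes, Sox17, an HMG-box factor of definitive and extraembryonic endoderm, was lowest inside the gene and not at its start. The exonic window chr1:4492554-4493358 was listed at 0 in all 6 libraries, and its neighbour chr1:4493373-4494900 averaged 18.6%. The window holding the principal start (chr1:4495629-4497187) read 23.0, 13.4 and 25.8% in G1 replicates 1 to 3 and 18.2, 21.01 and 26.7% in G2/M, so the phases overlapped. Methylation rose away from these windows on both sides to 62.0% and 68.4% in the outermost windows.

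Foxa2, a forkhead pioneer factor of endoderm, floor plate and node, had the lowest locus mean of the 9. Of its 10 windows, 7 were under 20%, and 4 of them formed an unbroken run of 4486 bp across the gene's starts. Of all runs of neighbouring windows under 20% in the table, 2.09% had at least as many windows. Within that run chr2:148046165-148046883 was listed at 0 in 5 libraries and at 0.926% in G2/M replicate 3. The window at the principal start read 27.3, 12.5 and 18.5% for G1 and 7.14, 22.4 and 17.4% for G2/M. The values of the phases interleaved. Beyond the 3′ end a second group of low windows followed, with 4.44% at chr2:148040182-148041521 and 6.24% at chr2:148039155-148040181.

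Gata4, a zinc-finger factor of endoderm and heart, had a start window near 0, and 17 of its 24 windows averaged over 50%. The window at its principal start, chr14:63245191-63245819, averaged 1.00% ± 1.32 (SD, n = 6), with 0, 0 and 2.56% for G1 and 0.667, 2.78 and 0% for G2/M. The window immediately upstream averaged 17.1% and the one downstream 32.3%. The low run of 2 windows was 1838 bp long, and 27.7% of runs in the table had at least as many windows. The highest window of all members, at 80.8%, lay within an intron of the same gene. The outermost downstream window, chr14:63191850-63193842, had the widest range between libraries among the members, from 4.84% in G1 replicate 1 to 45.1% in G1 replicate 3.

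Gata6, which with Gata4 drives primitive endoderm, had no window at its start. The start on chromosome 18 lay in a gap of 4190 bp in the table that contained 276 CG dinucleotides. The nearest window, 1049 bp upstream, averaged 13.8% ± 6.29 (SD, n = 6) and was the lowest at the locus. It read 19.0, 7.14 and 21.4% for G1 and 17.8, 8.72 and 8.55% for G2/M. The window on the other side of the gap, 3142 bp downstream, averaged 33.4%, and the gene body reached 75.1%.

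T (Brachyury), the T-box factor of the primitive streak and notochord, also started in a gap, here of 874 bp with 62 CG dinucleotides. The upstream flank of the gap, chr17:8432556-8433770, averaged 11.2% ± 11.0 (SD, n = 6) and the downstream flank, chr17:8434645-8436386 and nearer to the start, 34.0% ± 9.25. The nearer window read 42.6, 20.5 and 36.1% for G1 and 40.2, 24.4 and 40.2% for G2/M. Replicate 2 was the lowest library in both phases. No other window at T averaged under 20%, and the gene body reached 69.2%.

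Eomes, a T-box factor that acts in the streak and in trophoblast, had a pair of separate low windows. The window ending 148 bp before the principal start (chr9:118477067-118478196) read 7.33, 0.847 and 7.47% for G1 and 5.56, 0.538 and 6.73% for G2/M. Replicate 2 was again the lowest in both phases. The other, chr9:118487251-118488391, lay downstream of the gene, averaged 3.43%, and stayed between 2.42% and 5.88% in all 6 libraries. The windows between them averaged 25.5% to 56.0%. The start itself lay in a gap of 1398 bp with 123 CG dinucleotides.

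Pax6, a paired-box factor of eye, forebrain and spinal cord, contained the longest low stretch. A run of 8 neighbouring windows under 20% spanned 17874 bp from upstream of the first start into the gene, gaps in the table included. Of the 9118 runs of windows under 20% in the table, 9 (0.0987%) had at least as many windows. The window at the principal start, chr2:105667469-105668912, averaged 16.4% ± 7.86 (SD, n = 6) and read 10.2, 21.7 and 28.8% for G1 and 7.32, 16.7 and 13.9% for G2/M. Starts further downstream lay in chr2:105675210-105676166, listed at 0 in all 6 libraries. Farther into the gene a second low stretch held chr2:105688142-105689690 at 1.98% and chr2:105689692-105692648 at 10.2%, and the last windows rose to 64.3% and 78.1%.

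Of the trophoblast genes, Cdx2, a caudal-type homeobox factor required for trophectoderm, had a run of 3 windows under 20% within the gene, 2741 bp long, and 6.72% of runs in the table had at least as many windows. These averaged 2.68%, 3.31% and 0, the last (chr5:147306215-147306763) being the shortest member window and listed at 0 in all libraries. The start lay in a gap of 969 bp with 55 CG dinucleotides. The window on the upstream side, chr5:147307733-147312174, was nearest to the start (463 bp) and read 54.0, 60.9 and 65.6% for G1 and 55.2, 54.2 and 64.7% for G2/M. The 2 sides of the gap thus stood at 59.1% and 0, and the level at the start itself was not measured in the table.

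Elf5, an ETS factor of trophoblast stem cells and mammary epithelium, was methylated throughout. Its 13 windows averaged between 50.5% and 78.2%. The window at its principal start, chr2:103409993-103414937, read 68.2, 56.4 and 82.7% for G1 and 61.9, 73.0 and 71.9% for G2/M, with a mean of 69.0% ± 9.17 (SD, n = 6). The window of the downstream starts, chr2:103423985-103426192, averaged 56.0% and read 49.5, 66.7 and 53.3% for G1 and 42.2, 59.0 and 65.4% for G2/M. All 6 values at the principal start lay above every value in the principal start windows of Sox17, Gata4, Pax6 and Foxa2.

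**Figure D2:**
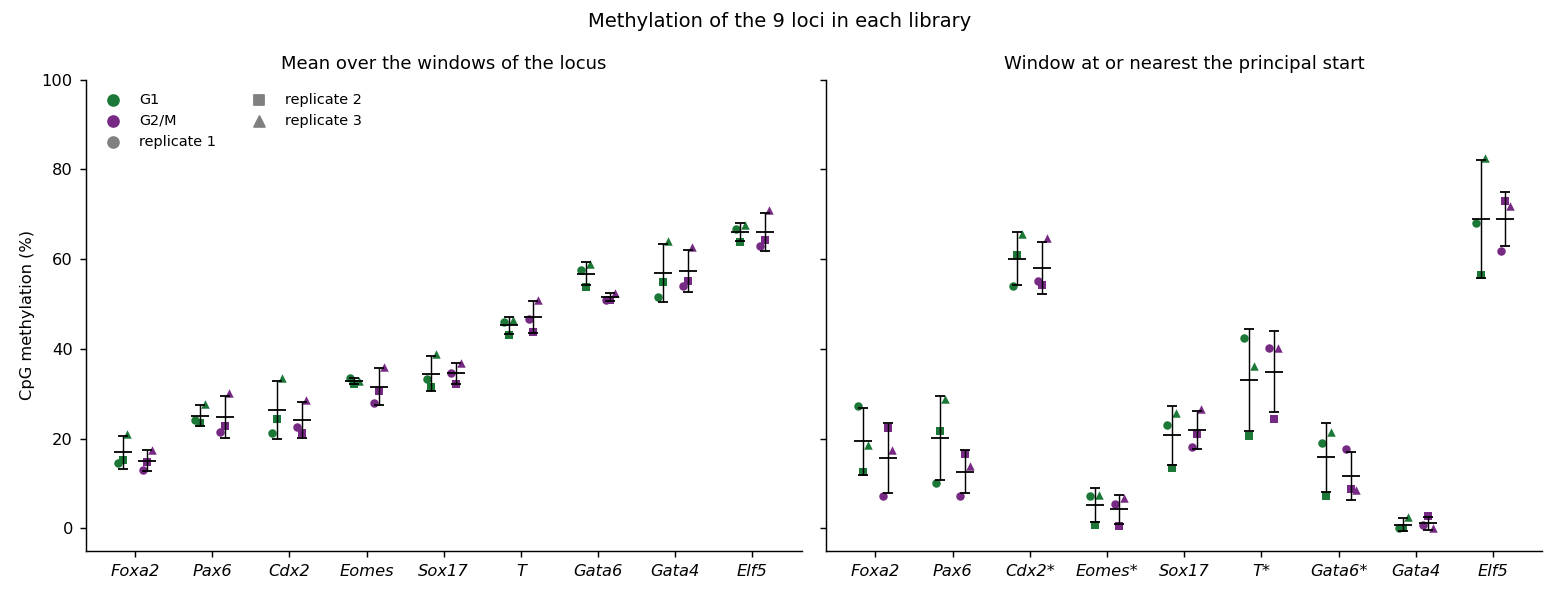
CpG methylation (%) in each of the 6 libraries as the mean over the windows of a locus (left) and in the window at or nearest the principal start (right), with G1 in green, G2/M in purple, a symbol for each replicate, and black lines for the mean and SD of 3. An asterisk marks the 4 genes whose start lay in no window. Elf5 was highest in both panels, and Cdx2 had a low locus mean but a start-side window of 59.1%.

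Over whole loci the mean level ran from 16.0% ± 2.89 at Foxa2 through Pax6 (25.001%), Cdx2 (25.3%), Eomes (32.3%), Sox17 (34.5%), T (46.2%), Gata6 (54.2%) and Gata4 (57.1%) to 66.1% ± 2.98 at Elf5 (SD, n = 6), and all windows of the table averaged 63.9%. These means depend on how much flank each interval held. Within libraries, Pax6 exceeded Foxa2 in 6 of 6, by 8.98 points (two-sided exact sign-flip test, p = 0.0312, the smallest that 6 libraries allow). The steps from Sox17 to T (11.7 points), T to Gata6 (7.95) and Gata4 to Elf5 (8.94) were also in 1 direction in all 6 libraries, with the same exact p of 0.0312. The neighbours Pax6 and Cdx2 (exact p = 0.875), Cdx2 and Eomes (0.0625), Eomes and Sox17 (0.188), and Gata6 and Gata4 (0.25) did not differ beyond their spread over libraries by the same exact test. These p-values were not adjusted over the 8 neighbouring pairs.

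Methylation varied with window length within the loci. Since a window holds about the same number of CpGs, a short window is CpG-dense. Of the 17 member windows under 1300 bp, 16 averaged under 20%, and the other, at Eomes, 23.1%. Short windows were as often low in the table as a whole, where 5080 of 5453 (93.2%) averaged under 20%, against 94.1% of the members. They made up 16.7% of the member windows and 1.52% of all windows. Among windows of 1300 bp or more, 13 of 85 members (15.3%) and 2.12% of all windows averaged under 20%. All 13 of these members were 1300 to 3000 bp long. Lengths within this class were not matched between the members and the table. The short member windows averaged 5.45%, against 33.5% for the 36 windows of 1300 to 3000 bp and 61.9% for the 49 windows of 3000 bp or more. Spearman's correlation of length with level was 0.80 over the 102 windows, which share libraries and lie next to each other, and it was 0.06 over the 13 windows of Elf5. Elf5 had no window shorter than 2208 bp. At the other 8 loci, 47 windows had lengths within the range found at Elf5 (2208 to 6204 bp). These averaged 52.5%, and 18 of them were below the lowest Elf5 window. The Elf5 windows were higher than these by 13.6 ± 3.16 points (SD, n = 6 libraries), with the difference between 8.27 and 18.1 points in every library (two-sided exact sign-flip test, p = 0.0312). This did not hold for each locus. The 18 Gata4 windows of such length averaged 65.9%, and Elf5 differed from them by 0.137 ± 3.74 points (exact p = 0.844). At Gata6 the difference was 5.82 ± 3.80 points and at Pax6 34.3 ± 2.77, both with Elf5 higher in 6 of 6 libraries.

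**Figure D3:**
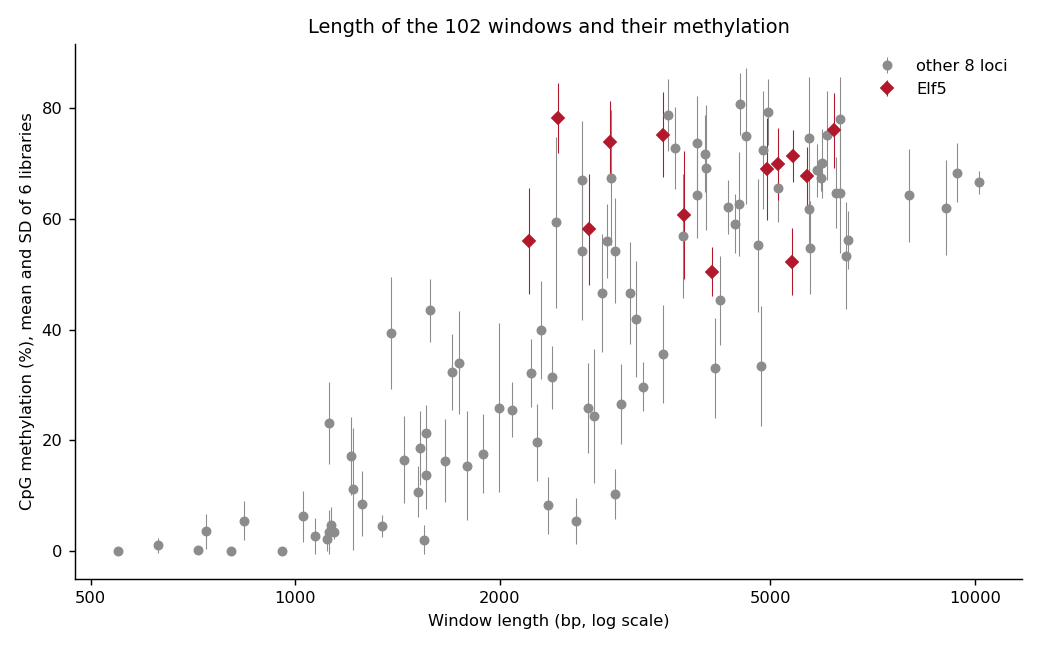
Length of each of the 102 windows in bp (log scale) against its CpG methylation in %, as mean and SD of 6 libraries, with Elf5 as red diamonds and the other 8 loci as grey circles. Windows under 1300 bp were nearly all under 20%, and the 13 Elf5 windows lay between 50.5% and 78.2%.

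Promoter windows, those overlapping the stretch from 1000 bp before to 100 bp after a coding start, were compared with the other windows of the same locus. They were lower in all 6 libraries at Gata4 (by 29.7 ± 3.83 points), Pax6 (23.7 ± 3.02), T (40.9 ± 13.6), Eomes (31.4 ± 3.84) and Foxa2 (13.4 ± 3.78), each with an exact sign-flip p of 0.0312 (two-sided, SD over n = 6). Taken as 3 matched sets, the libraries cannot give an exact p below 0.25, which holds for every sign-flip test over 6 libraries here. At Sox17 they were lower in 5 of 6 libraries, by 4.12 ± 5.27 points (exact p = 0.125). At Elf5 the difference was 0.324 ± 5.23 points (exact p = 0.906). At Cdx2 the sign was the opposite, with the 1 promoter window, on the CpG-sparse upstream side of the gap, higher by 38.6 ± 2.21 points in all 6 libraries (exact p = 0.0312). Gata6 had no promoter window in the table. At T the 1 promoter window was the upstream flank of the gap (11.2%). The window nearer to the start of T (34.0%) counted among the other windows. With the single window at the principal start in place of all promoter windows, the difference at Foxa2 was 1.69 points in the other direction (exact p = 0.688). The same change gave -15.4 points at Sox17 (exact p = 0.0312) and -9.17 at Pax6 (exact p = 0.0625), and against flanks only Sox17 stood at -33.6 points.

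Among coding genes, most of the 9 windows at or nearest the start ranked in the lower part of the range. Those of Cdx2 and Elf5 ranked in the upper part. The principal start lay in a window for 5 of the 9 genes (55.6%), against 73.2% of 21851 protein-coding genes. Of the 15992 coding genes with a start in a window, 27.9% averaged under 20% there and 47.1% over 50%. In the window at or nearest the start, Gata4 was higher than 10.0% of these genes, Eomes than 15.4%, Gata6 than 22.9%, Pax6 than 25.3%, Foxa2 than 26.0%, Sox17 than 29.0%, T than 39.4%, Cdx2 than 62.6% and Elf5 than 83.5%. For Gata6, T, Eomes and Cdx2 the rank is that of the nearest window, a choice made after the gaps were seen. At T this is not the promoter window of the contrast above.

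Other regulators of the same lineages were read in the same way, as levels with no test. The principal start lay in a window for 6 of 11 endoderm, 9 of 15 mesoderm and 6 of 15 neural genes. This held for 6 of 12 trophoblast and 5 of 8 ES cell genes. For the others the nearest window was read, which was 848 bp away at Klf4 and at most 2595 bp away, at Sox3. Of 11 further endoderm genes 4 had a start-side window under 20% (median 25.2%), from Lhx1 at 0.725% to Hnf4a at 78.5%. The share was 8 of 15 for mesoderm (median 19.3%, from Foxf1 at 0.189% to Runx1 at 80.1%) and 9 of 15 for neural genes (18.7%, from Neurog2 at 0.303% to Sox3 at 58.8%). For trophoblast genes it was 8 of 12 (11.5%, from Tead4 at 0.631% to Gcm1 at 63.2%). Elf5 at 69.0%, in the window of its principal start, was above every one of these 12 trophoblast genes. The window of its equally ranked downstream starts, at 56.0%, was below Gcm1, Ascl2 (62.9%) and Ets2 (61.0%). Of 8 genes active in ES cells 6 were under 20% (median 5.82%), from Klf4, listed at 0, to Pou5f1 at 55.0%. The windows of Pou5f1, Hhex and Ets2 were each over 50000 bp long, so their levels describe far more than a promoter. No gene in these lists passed limma's adjusted threshold between G1 and G2/M (0.00223% of all windows did). At an unadjusted limma p under 0.05, 1 endoderm, 1 mesoderm and 1 ES cell gene were higher in G1, where 1.36% of all windows passed. These were Sox7 (mean 4.46%), Isl1 (19.3%) and Nanog (13.9%). Higher in G2/M were 3 trophoblast genes and 1 ES cell gene, where 0.75% of all windows passed. Of these, Tead4 (0.631%), Gata3 (0.765%) and the ES cell gene Dppa5a (1.41%) lay near 0, and Tbx3 averaged 10.6%. Tead4 and Gata3 were listed at 0 in every G1 library. Whether such calls reflect more than listed 0s was not tested.

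The gene whose profile was most like each member was sought among 20546 coding genes, over 6 bins of 5 kb around the start in 6 libraries (36 values). The root mean square difference was 5.17 points for Elf5 and A630010A05Rik, 6.03 for Gata4 and Atg16l1, 6.41 for Sox17 and Ago2, and 6.84 for Pax6 and Hist1h1c. It was 6.88 for Foxa2 and Fam136a, 7.11 for Eomes and Ppcs, 7.12 for T and Cdc123, 7.34 for Gata6 and Dtymk, and 8.27 for Cdx2 and Plcd1. The median over all genes compared was 17.2 for Elf5 and 40.4 for Pax6, the smallest and largest of the 9.

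The comparison of the phases asked whether methylation of these loci differed between cells before replication and cells that had completed it. Over all 102 windows G1 averaged 42.9% ± 3.33 and G2/M 42.1% ± 3.60 (SD, n = 3). The matched differences were 1.30, 0.547 and 0.471 points. Over all windows of the table they were 1.28, 0.640 and 0.699 points. With each library centred on its median the difference at the loci was -0.30 points, with G1 higher in 0 of 3 matched pairs, and with medians over windows it was -0.23. The libraries of replicate 3 stood above the others at these loci in both phases, by 5.76 points in G1 and 6.21 in G2/M. In G1 this offset was 7.99 points in windows of 3000 bp or more and -0.89 in windows under 1300 bp, and in G2/M it was 7.49 and 2.47 points. Its part in the results was not tested.

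Gata6 was the locus with the largest difference of means. Its locus mean stood at 57.5, 53.9 and 58.9% for G1 replicates 1 to 3 and at 51.01, 51.01 and 52.6% for G2/M, so the phases did not overlap. The difference was 5.25 points (two-sided exact permutation test, p = 0.10, the smallest that 3 against 3 allows), with matched differences of 6.49, 2.90 and 6.36. With each library centred on its median the difference was 4.18 points (exact permutation p = 0.3). The window with the largest difference at Gata6, chr18:11084393-11090101 over an exon, read 67.9, 70.1 and 64.7% for G1 and 51.6, 54.6 and 61.9% for G2/M, without overlap (limma unadjusted p = 0.0628, adjusted p = 1.0).

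At the other 8 loci the phases overlapped, with exact permutation p-values of 0.4 or more for n = 3 against 3. Foxa2 was higher in G1 in all 3 matched pairs (by 1.54, 0.507 and 3.51 points), and T lower in all 3 (by 0.52, 0.78 and 4.44 points). Sox17 (-0.04 points), Gata4 (-0.48), Pax6 (0.242), Eomes (1.34), Cdx2 (2.23) and Elf5 (0.0672) had matched differences of both signs. In the windows at or nearest the start the exact permutation p ran from 0.3 at Pax6 to 1.0 at Elf5 (n = 3 against 3). Pax6 was the start window with the largest difference, 7.59 points higher in G1, with matched differences of 2.89, 5.00 and 14.9 points. It was 3.29 points without G1 replicate 3, 12.6 without G1 replicate 1, and 1.24 as the mean of all windows at the start.

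**Figure D4:**
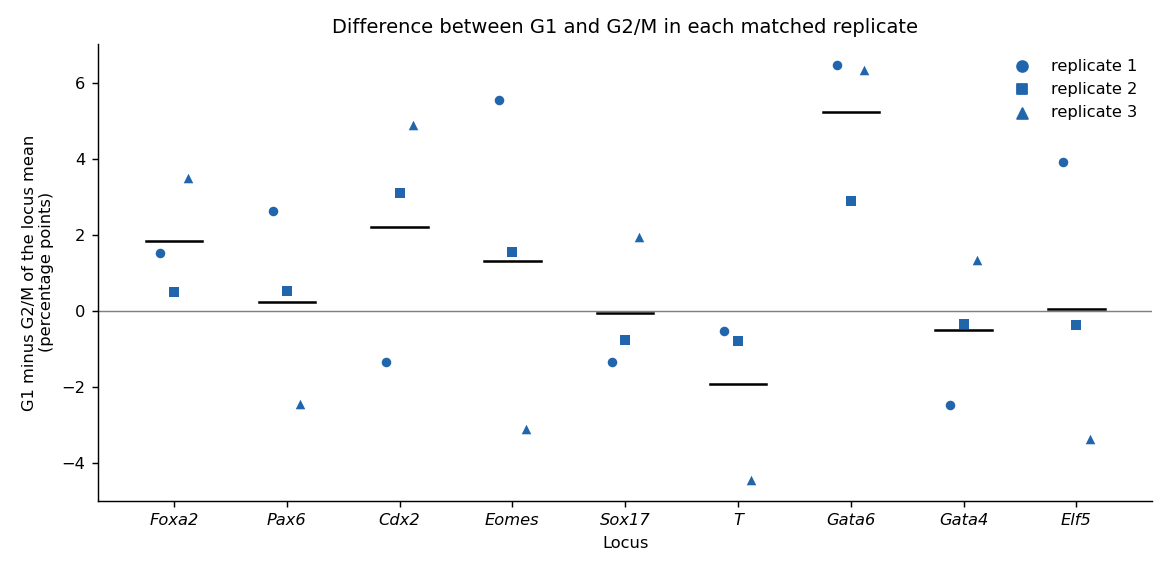
Difference of the locus mean between G1 and G2/M, in percentage points, in each of 3 matched replicates (symbols), with a line at the mean, for the 9 loci in order of level. Gata6 was above 0 in all replicates with a mean of 5.25, and the means of the other loci lay between -1.91 and 2.23.

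No single member window passed the threshold between the phases after adjustment. By limma on the logit scale with Benjamini-Hochberg adjustment over the whole table, 0 of 102 passed at 0.05, as did 0.00223% of all windows (8 of 359192). At an unadjusted p under 0.05 there were 6 of 102 (5.88%), against 2.11% of all windows. G1 was higher in 5 of these (4.90%, background 1.36%) and G2/M in 1 (0.98%, background 0.75%). With only windows averaging from 10% to 90% kept, 2 of 84 members had an unadjusted limma p under 0.05, against 2.3% of all windows so kept. Over all 102 members, all 3 matched differences favoured G1 in 13 windows (12.7%, against 16.3% of all) and G2/M in 10 (9.80%, against 9.74%). The phases did not overlap in 8 windows, with the G1 values all higher in 5 (4.90%, against 4.12%) and all lower in 3 (2.94%, against 1.98%). With the replicate number as a block in the fit, 7 of 102 (6.86%, background 4.83%) had an unadjusted p under 0.05 and 0 an adjusted one, as in the whole table (0%).

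The 6 windows were weakly methylated and lay at 5 loci. At Cdx2, chr5:147305094-147306214 in an intron read 3.08, 5.00 and 10.4% for G1 and 0, 0 and 1.35% for G2/M, without overlap (limma unadjusted p = 0.000494). At Pax6, chr2:105689692-105692648 read 10.4, 11.8 and 18.3% for G1 and 5.66, 7.61 and 7.50% for G2/M (limma unadjusted p = 0.0137). The other Pax6 window, chr2:105668941-105669780 just inside the first start, went the other way, with 5.56, 2.38 and 0.735% for G1 and 6.67, 6.52 and 10.8% for G2/M (limma unadjusted p = 0.0112). Neither Pax6 window overlapped between the phases, and their differences had opposite signs, 6.61 and -5.11 points.

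At Eomes, chr9:118475945-118477066 upstream of the start window read 34.2, 26.5 and 24.3% for G1 and 14.2, 15.5 and 23.6% for G2/M (limma unadjusted p = 0.0455). The groups were separated by less than 1 point, between replicate 3 of each phase. At T, chr17:8432556-8433770 read 31.5, 14.6 and 6.67% for G1 and 9.03, 0 and 5.36% for G2/M (limma unadjusted p = 0.0362). Here the phases overlapped, and G1 replicate 1 was far above the others. At Foxa2, chr2:148044289-148045027 in an exon read 3.23, 4.17 and 8.75% for G1 and 0.676, 0 and 4.44% for G2/M, with overlap (limma unadjusted p = 0.0255). The limma adjusted p was 1.0 for all 6, and ranged from 0.411 to 1.0 under the alternative settings. The unadjusted limma p stayed under 0.05 in all 11 alternatives run for the Cdx2 window and for the Pax6 window just inside its first start. It did so in 10 of 12 for the other Pax6 window, 9 of 12 for T, 7 of 11 for Foxa2 and 5 of 12 for Eomes. With the replicate block it was 0.0709 for Eomes (limma unadjusted p) and under 0.05 for the other 5.

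**Figure D5:**
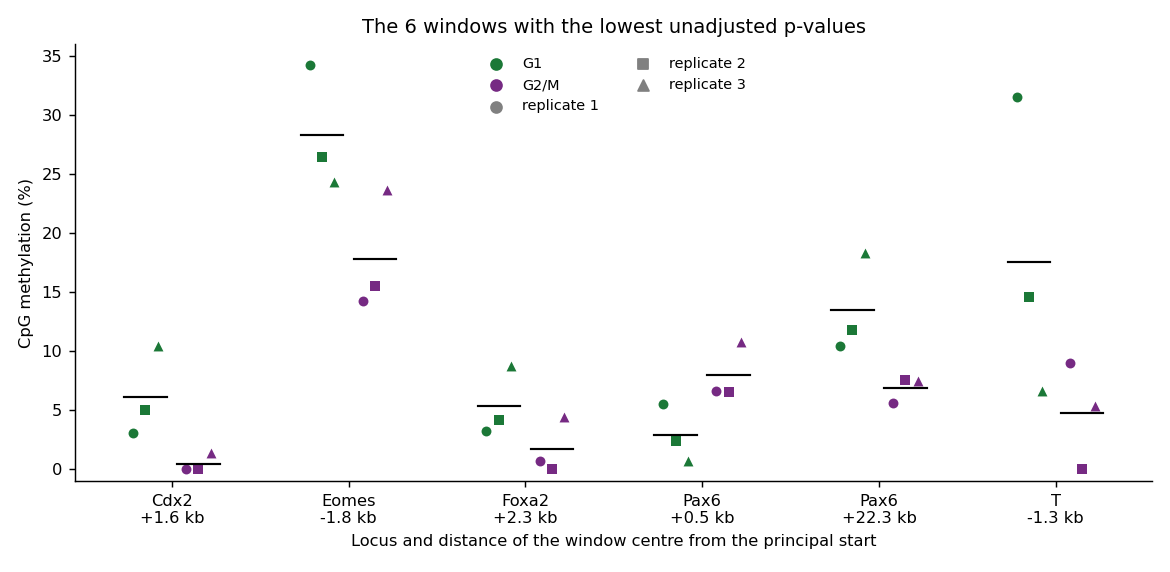
CpG methylation (%) of the 6 member windows with an unadjusted limma p under 0.05, in G1 (green) and G2/M (purple), with a symbol for each replicate and a line at the mean of 3; the label gives the distance of the window centre from the principal start in kb. G1 was higher in 5 windows and G2/M in the Pax6 window just inside its first start, and none passed the adjusted threshold.

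The remaining loci had windows with all 3 matched differences of 1 sign but no unadjusted limma p under 0.05. At Gata4 the largest was chr14:63248802-63251753 in an intron, at 40.1, 50.0 and 54.3% for G1 and 56.9, 69.2 and 55.1% for G2/M, 12.3 points lower in G1 (limma unadjusted p = 0.101). At Sox17, chr1:4493373-4494900 was lower in G1 by 7.26 points (limma unadjusted p = 0.129). At Elf5, chr2:103426193-103431327 was higher in G1 by 8.28 points (limma unadjusted p = 0.139). Both had values that overlapped between the phases.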

How the data were processed

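Genomic DNA from sorted mESCs was made into EM-seq libraries. The authors used Trim Galore 0.6.4 and Bismark 0.22.1 with Bowtie2 on GRCm38 (per the labels and the methods), then quantified windows of 100 CpGs. The deposited values are a percent of CpG methylation per window and library, with no coverage, so the authors' regression on counts could not be run, the depth is unknown and no interval is given. A window average hides unequal coverage of its CpGs, and windows without enough observed CpGs were left out.

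The members and gene lists were chosen with earlier results of these data known. Windows were annotated with GENCODE vM21. The principal transcript was the best APPRIS transcript and then the longest. Where a start lay in no window the nearest window was used. Phases were compared with limma 3.58.1 in R 4.3.3 on log2((percent + 1)/(100 - percent + 1)) with a trended prior over all 359192 windows. On simulated data this fit missed most of the windows given a change. A window that did not pass was thus not shown to be unchanged. Single values were compared with exact tests over libraries, two-sided, with raw p-values for 9 loci, 9 start windows and 8 promoter contrasts. All 6 libraries come from 1 cell line, and the p-values measure the spread between these libraries.

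All 9 genes are described. At each locus the windows named are the lowest, the highest, the largest difference with 3 matched differences of 1 sign, any with an unadjusted limma p under 0.05, and neighbours of these chosen after their values were seen. The Eomes and Foxa2 sequences, the order of the loci and the comparison of Elf5 at equal window length were added after the values were seen. Alternatives were centring, interval edges, medians, length weights, other start definitions, limma settings, the replicate block and leaving out each library.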

Additional observations from a re-analysis of the deposited data

How the results depend on the processing

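Of the locus differences between G1 and G2/M, that of Gata6 kept its sign under every alternative run, between 4.18 and 6.68 points when 1 library at a time was left out. Signs turned for small differences. With each library centred on its median the locus mean moved to -0.83 points at Pax6 and -1.01 at Elf5, and the start window to -0.13 at Eomes and -0.96 at Elf5. With medians over windows it was 3.31 points at Sox17 and -0.27 at Foxa2, and with windows weighted by length 0.609 at Sox17 and -0.31 at Elf5. With the 5′ end of the gene in place of the principal start the start window gave 6.21 points at Sox17 and 14.7 at Gata4. The mean of windows overlapping the stretch from 1000 bp before to 100 bp after the start gave 2.49 at Sox17. At T that stretch met a single window, the upstream flank of the gap, which replaced the nearer window and gave 12.8. Leaving out 1 library at a time, the locus difference ran from -2.18 to 1.49 points at Sox17, from -4.09 to 2.21 at Gata4, from -1.43 to 2.92 at Pax6, from -3.56 to 0.00655 at T, from -0.45 to 3.57 at Eomes, from -1.35 to 4.79 at Cdx2, from -1.50 to 2.52 at Elf5 and from -0.21 to 3.09 at Foxa2. Over all 9 loci it ran from -1.15 to 2.84, and it was -0.30 with centring and -0.23 with medians over windows. For the start window the ranges were -3.74 to 2.42 at Sox17, -1.15 to 0.521 at Gata4, 1.38 to 8.50 at Gata6, 3.29 to 12.6 at Pax6, -7.16 to 4.37 at T, -0.93 to 3.13 at Eomes, -0.62 to 5.41 at Cdx2, -6.67 to 6.45 at Elf5 and -0.46 to 7.26 at Foxa2. These tests cannot pass 0.05 with 3 libraries a phase, so only signs and sizes were compared, and the cause of these turns was not tested.

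The contrast of promoter windows with other windows turned at Sox17 with medians (1.34 points), at Elf5 against flanks only (-4.47) and at Foxa2 with only the window at the principal start (1.69). At Sox17 it was -33.6 points against flanks only and -15.4 for the window at the start, both past 0.05 by the exact test, and at Pax6 -9.17 with only the window at the start, no longer past it. Without 1 library the exact test cannot go below 0.0625, and the contrast then ran from -5.65 to -2.67 points at Sox17, -30.6 to -28.4 at Gata4, -24.7 to -23.1 at Pax6, -45.6 to -38.4 at T, -32.6 to -30.6 at Eomes, 38.005 to 39.03 at Cdx2, -0.50 to 2.31 at Elf5 and -14.5 to -12.4 at Foxa2. No limma setting gave an adjusted p under 0.05 at a member window. The count with an unadjusted limma p under 0.05 was 2 of 84 when only windows from 10% to 90% were kept, against 2.3% of all windows so kept. It was 3 of 102 without G2/M replicate 2 (1.79% of all windows) and 10 of 102 without G1 replicate 1 (1.9% of all). The number of the 9 genes with a start window under 20% was 5 in the report's setting and when any library was left out, and 4 with the 5′ end of the gene. Of all coding genes, 28.1% had a window under 20% at or nearest the principal start.

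With the replicate block, the locus difference at Gata6 of 5.25 points had an exact sign-flip p of 0.25, the smallest that 3 pairs allow, and the block changed no call at a member window after adjustment. Deviations of same-numbered libraries from their group means correlated between 0.0274 and 0.0549 over all windows, and those of other pairs between -0.0299 and -0.00144. The mean level was highest in replicate 3 of both phases, which such a correlation does not see. The pairing rests on the study's wording. Coverage, which sets the error of each percentage, is unknown, and differences at single windows could not be set against it.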
